A study of Bos taurus and Sus scrofa with 10 samples.

Results

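The genes described here encode subunits of the RNA polymerases I, II and III and of the Mediator complex. They were taken by symbol: every gene row whose name begins with POLR1, POLR2 or POLR3 and a further letter, or with MED and a digit. This gave 56 of the 22845 rows of the cow table (28 polymerase subunits and 28 Mediator subunits) and 46 of the 21867 rows of the pig table (21 and 25). Of these, 45 symbols were present in both species, 11 in the cow table alone and 1, MED7, in the pig table alone. POLR2A, which encodes the largest subunit of RNA polymerase II, was among those analysed in cow alone. The study profiled RNA of cow and pig preimplantation development from oocytes, embryos of 2-4 and of 8-16 cells, morulae and blastocysts. With 1 library for every combination of species and stage, 10 in all, differences between stages could not be set against replicate spread, and p-values are not given. Breed, culture conditions, treatment and the number of oocytes or embryos in a library are not given in the sources used here, and the labels name no genotype or agent.

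RNA polymerase I transcribes the large ribosomal RNA precursor, RNA polymerase II transcribes messenger RNAs, and RNA polymerase III transcribes transfer RNAs and other small RNAs. Each has a pair of large catalytic subunits of its own, and smaller subunits of which some are shared by all 3 polymerases and some by I and III. Mediator bridges transcription factors and RNA polymerase II. It is built of head, middle and tail modules on the backbone subunit MED14, and a separable kinase module carries MED12 or its paralog MED12L and MED13 or its paralog MED13L. The oocyte stores transcripts and proteins, and the embryo begins with these maternal stores before its own genome is transcribed at a high rate.

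Levels are reads per 1000000 reads of a library (RPM), not divided by gene length, so they compare a gene between stages but not one gene with another. Read totals ran from 3002751 in the pig morula to 14182046 in the cow blastocyst, where 3 reads, the limit that a count of 0 allows, equal 0.999 and 0.212 RPM. Brackets after a level hold its 95% Wilson interval and brackets after a fold an exact conditional 95% interval; both cover counting error only. Mitochondrial genes held 2.74% to 30.2% of the reads in cow and 6.06% to 18.6% in pig, highest in both blastocysts. The labelled stages were checked against marker lists: from oocyte to blastocyst, summed oocyte markers went in cow from 6864 to 0.282 RPM and in pig from 8688 to 39.7 RPM, and summed blastocyst markers from 142 to 4073 RPM and from 83.5 to 8633 RPM. Cumulus cells are the somatic cells that surround an oocyte. Their summed markers stood at 346, 351, 113, 94.9 and 118 RPM from oocyte to blastocyst in cow. The pig sums were 64.0, 63.1, 162, 135 and 40.2 RPM. The cow sum thus fell between the 2-4 and 8-16 cell embryos. In each library 3 to 6 of the 13 cow and 9 pig cumulus markers had 0 reads, and the part of these cells in any result was not tested. In whole oocytes and embryos, fewer cells with a transcript and less of it per cell cannot be told apart.

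A change between 2 stages was the difference in log2(RPM + 1), computed for genes with at least 1 RPM in one of both libraries and called where it reached 2 in size, a factor of 4 on the RPM + 1 scale. Among polymerase and Mediator genes the step with the most calls was from the 2-4 to the 8-16 cell embryo in cow and from morula to blastocyst in pig, steps at which many of all genes were called too. From the cow oocyte to the 2-4 cell embryo 50 members were compared and none was called in either direction, where 0.196% of the 11226 genes compared were called higher and 0.178% lower. From the 2-4 to the 8-16 cell embryo in cow, 8 of 55 members were called higher and 6 lower, beside 12.6% and 14.6% of all genes compared. The 8 were POLR1C, POLR2B, POLR2K, POLR2L, POLR3E, POLR3F, MED9 and MED26, and the 6 were POLR1B, POLR2J, POLR3C, MED4, MED14 and MED24. With all libraries scaled to the median gene this split of 8 and 6 became 10 and 3, beside 15.1% and 9.77% of all genes. Scaled to non-mitochondrial reads it became 9 and 4, beside 15.1% and 12.7%. From the 8-16 cell embryo to the morula in cow, 4 of 56 members were called higher (POLR3GL, MED12L, MED13L and MED27) and 1 lower (MED8), beside 6.67% and 5.15% of all genes. From morula to blastocyst in cow, 1 of 56 was called higher (POLR2K) and 2 lower (POLR3G and MED12L), beside 11.9% and 11.5%.

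In pig the first step already held calls. From oocyte to 2-4 cell embryo, 1 of 38 members compared was called higher (POLR1C) and 3 lower (POLR2B, MED20 and MED21), beside 3.26% and 2.17% of all genes. From the 2-4 to the 8-16 cell embryo, 2 of 41 were called higher (POLR2F and POLR3F) and none lower, beside 4.33% and 0.543%. From the 8-16 cell embryo to the morula, 2 of 42 were called higher (POLR3F among them) and 2 lower (MED14 and MED28), beside 12.0% and 11.3%. From morula to blastocyst, 2 of 45 were called higher (MED7 and POLR2I) and 7 lower (POLR1E, POLR3D, POLR3G, MED6, MED12L, MED14 and MED21), beside 13.8% in each direction. Scaled to the median gene, the split of 2 and 7 became 3 and 6.

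Over the whole span from oocyte to blastocyst, 11 of 55 cow members were called higher and 7 lower, which is 20.0% and 12.7%, beside 21.8% and 18.4% of all genes. In pig 8 of 45 were called higher and 9 lower, 17.8% and 20.0%, beside 26.0% and 19.2%. The median difference over the span was 0.04 for cow members and 0.18 for all cow genes compared, and 0.22 and 0.43 in pig. Scaled to non-mitochondrial reads, the cow split of 11 and 7 became 13 and 4, beside 27.7% and 16.4% of all genes. This scaling shifted the median of all cow genes by 0.42. By family, 8 of 28 polymerase genes rose and 3 fell in cow, and 6 of 20 rose and 3 fell in pig. Of Mediator genes 3 of 27 rose and 4 fell in cow, and 2 of 25 rose and 6 fell in pig. The median differences were 0.59 and 0.45 for the polymerase genes and -0.07 and -0.25 for the Mediator genes. Scaled to non-mitochondrial reads, the polymerase counts became 9 and 2 in cow and 7 and 3 in pig. The Mediator counts became 4 and 2 in cow and 4 and 6 in pig. Scaled to the median gene, the polymerase counts were 8 and 4 in cow and 6 and 3 in pig. The Mediator counts were then 3 and 4 in cow and 1 and 6 in pig. Whether the families differ was not tested.

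**Figure D1:**
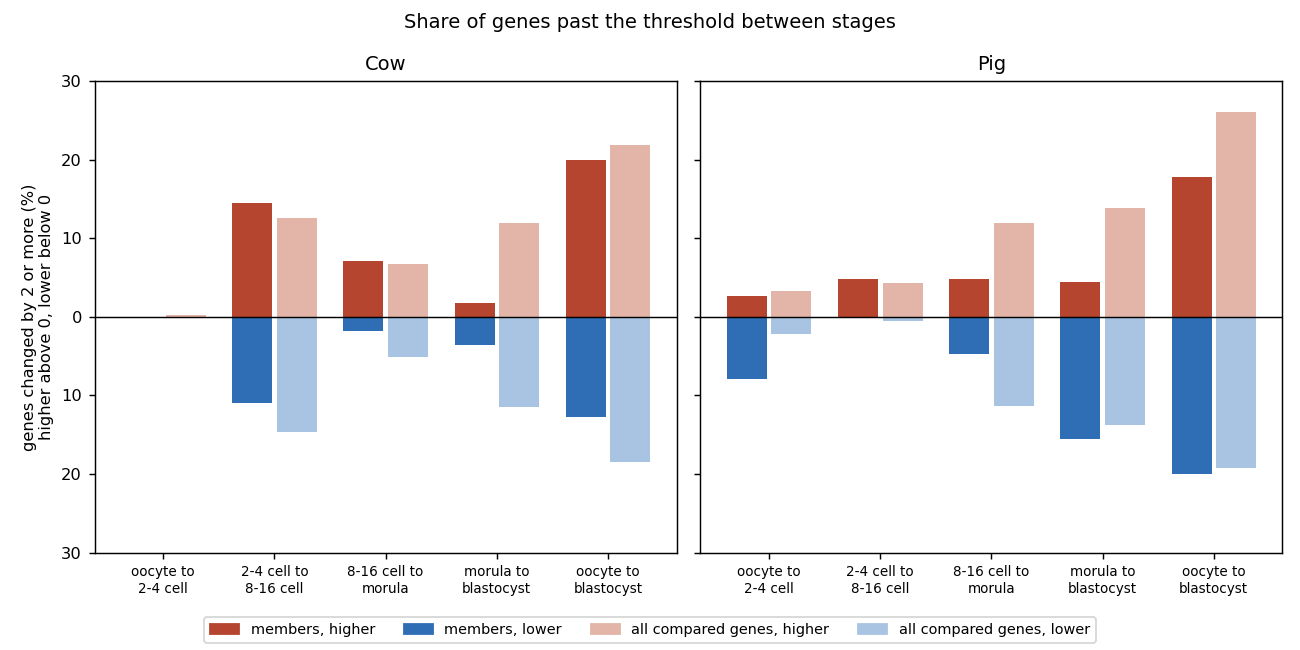
Percent of genes whose log2(RPM + 1) differed by 2 or more between 2 stages (x axis), higher above 0 and lower below 0, for polymerase and Mediator genes (dark bars) and for all genes compared (pale bars) in cow and pig, 1 library a stage. In cow the first step has no member past the threshold and the 2-4 to 8-16 cell step has 8 higher and 6 lower; in pig the morula to blastocyst step has 2 higher and 7 lower.

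Where each gene was highest also differed between the species. In cow 17 of 56 members were highest in the 2-4 cell embryo (30.4%, beside 26.3% of all genes with 1 RPM in a library) and 15 in the 8-16 cell embryo (26.8%, beside 15.6%). In the cow blastocyst 9 were highest (16.1%, beside 27.5%). In pig 18 of 45 members were highest in the morula (40.0%, beside 24.5%) and 1 in the 2-4 cell embryo (2.22%, beside 10.5%). Among the 20 pig polymerase genes with 1 RPM in a library, 11 were highest in the morula. The range over the 5 stages had a median of 2.32 on the log2 scale for members in both species, beside 2.45 for all cow genes and 2.44 for all pig genes. The summed level of the polymerase genes ran 879, 1171, 1425, 1323 and 759 RPM from oocyte to blastocyst in cow and 644, 576, 685, 1229 and 576 RPM in pig. The cow sum was highest in the 8-16 cell embryo and the pig sum in the morula. In cow POLR2B alone held 531 of the 1425 RPM in the 8-16 cell embryo, so the stage of the cow peak rests on this 1 gene. The POLR2B row overlaps IGFBP7 on the other strand.

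**Figure D2:**
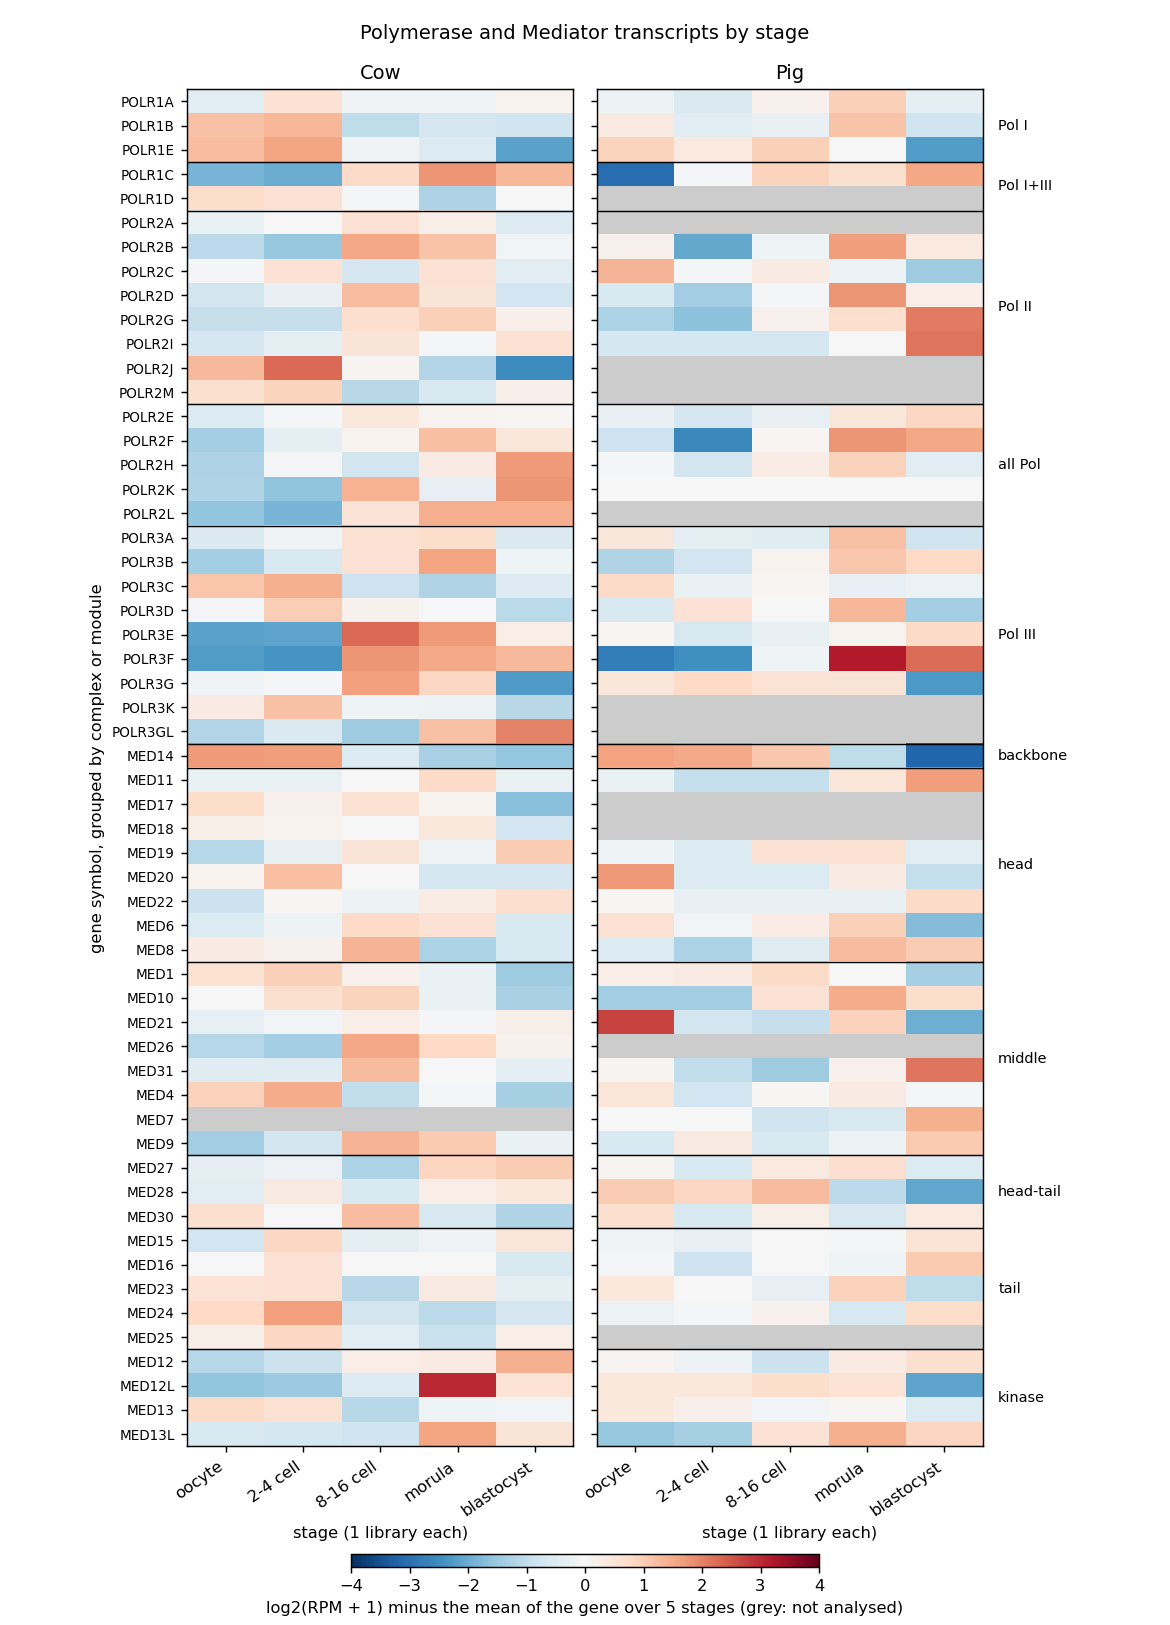
log2(RPM + 1) of polymerase and Mediator genes minus each gene's mean over the 5 stages, by stage (columns, 1 library each) and by complex or module (rows), in cow and pig; red is above and blue below the gene's mean, grey means not analysed in that species. MED14 goes from red to blue in both species, POLR1C and POLR3F from blue to red, and the pig POLR2K row is blank because it had 0 reads in all 5 libraries.

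RNA polymerase I was represented by POLR1A and POLR1B, its largest and second largest subunits, and POLR1E, which pairs with another subunit on the enzyme's surface. None of the 3 was called higher from oocyte to blastocyst in either species, and POLR1E fell in both. POLR1E stood at 97.8, 125, 37.6, 28.2 and 8.60 RPM from oocyte to blastocyst in cow, which is 11.4-fold lower at the end [9.30 to 13.98]. The pig levels were 50.3, 35.3, 52.1, 27.0 and 4.83 RPM, 10.4-fold lower [6.40 to 18.0]. The cow level was already below the oocyte's in the 8-16 cell embryo, while in pig the oocyte and 8-16 cell intervals overlapped and the call came at the last step.

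POLR1B in cow stood at 85.6, 96.0, 17.9, 23.3 and 21.0 RPM. It fell 5.38-fold between the 2-4 and 8-16 cell embryos [4.30 to 6.77], and over the whole span its difference of -1.98 was just short of the threshold. The span difference passed the threshold with a pseudocount of 0.5 RPM, at -2.001, and under median scaling, at -2.03. In pig POLR1B stood at 29.6, 16.7, 18.3, 51.3 and 12.6 RPM, highest in the morula, with a span difference of -1.17. POLR1A stood at 30.0, 61.1, 37.2, 36.9 and 45.5 RPM in cow and at 11.3, 8.46, 14.8, 26.3 and 9.92 RPM in pig, with no step past the threshold in either. The pig POLR1A gene overlaps PTCD3 on the other strand, and whether the authors' counting used strand is not given in the sources used here.

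POLR1C and POLR1D form the subunit pair that RNA polymerases I and III share. POLR1C rose in both species and POLR1D, present in the cow table, did not pass the threshold. POLR1C stood at 3.25, 2.93, 25.0, 51.3 and 38.1 RPM in cow, with a rise of 8.55-fold at the 2-4 to 8-16 cell step [4.83 to 16.5] and 11.7-fold over the span [7.16 to 20.7]. In pig it stood at 1.18, 16.2, 32.5, 27.0 and 52.0 RPM. There the rise past the threshold came at the first step, 13.7-fold [5.10 to 51.6], and reached 43.9-fold over the span [16.9 to 163], from 4 reads in the oocyte library. POLR1C lies on chromosome 23 from 17035500 to 17042367 in the cow table and on chromosome 7 from 38511552 to 38530830 in the pig table; the builds named in the submitters' processing notes are UMD3.1 and Sscrofa11.1. In pig its row overlaps XPO5 on the other strand, which stood at 53.0, 44.7, 80.5, 167 and 172 RPM; its part in the POLR1C values was not tested. POLR1D stood at 52.5, 47.5, 29.8, 12.8 and 30.7 RPM in cow.

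RNA polymerase II has POLR2A, which carries the C-terminal repeat domain, and POLR2B as its catalytic pair. POLR2A in cow stood at 81.3, 97.6, 148, 120.3 and 66.8 RPM, with no step past the threshold. Its span difference was -0.28, and 0.12 under non-mitochondrial scaling. POLR2B moved more. In cow it stood at 88.8, 62.9, 531, 403 and 169 RPM, and the 8-16 cell level was 8.44-fold above the 2-4 cell level [7.46 to 9.58]. In pig its levels were 77.3, 15.9, 61.0, 224 and 90.1 RPM: it fell 4.85-fold at the first step [3.69 to 6.45] and was highest in the morula. The oocyte and blastocyst levels lay closer in both species, with span differences of 0.92 in cow and 0.22 in pig, so the largest differences were at intermediate stages. POLR2B overlaps IGFBP7 on the other strand in both tables. IGFBP7 stood at 4.87, 1.58, 26.3, 54.4 and 15.3 RPM in cow and at 79.3, 11.4, 26.2, 49.0 and 15.3 RPM in pig, lowest beside POLR2B in the 2-4 cell embryo of both species. The part of reads from IGFBP7 in the POLR2B values was not tested. The pig call at the first step was lost, at -1.89, when libraries were scaled to the median gene.

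The remaining subunits of RNA polymerase II had 1 call over the span in cow and 3 in pig. POLR2J, a small subunit of the enzyme's core, fell in cow from 39.1 RPM in the oocyte and 77.7 RPM in the 2-4 cell embryo to 16.6, 6.15 and 1.83 RPM, 21.4-fold over the span [14.1 to 33.5]. It had the widest range over stages of any cow member, 4.80 on the log2 scale, and was not analysed in pig. In pig POLR2C, whose protein pairs with that of POLR2J, fell from 59.2 to 7.78 RPM, 7.62-fold [5.14 to 11.7], while in cow it ran between 9.57 and 23.9 RPM. POLR2G, whose protein forms the stalk of the enzyme, rose in pig from 1 read in the oocyte and 0 reads in the 2-4 cell embryo to 12.1 RPM, a ratio of 40.8 [6.95 to 1645]. POLR2I, a small subunit at the enzyme's jaw, had 0 reads in the first 3 pig stages, 2 in the morula and 23 in the blastocyst, at least 6.94-fold higher than the floor of 3 reads in the oocyte; its call was lost at 1.92 when all values under 3 reads were set to 3 reads. POLR2D, POLR2M and, in cow, POLR2C, POLR2G and POLR2I were not called over the span. POLR2M encodes a protein that binds the enzyme and is not part of its core.

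Of the 5 subunits common to all 3 polymerases, all 5 had a positive span difference in cow and 3 of them, POLR2H, POLR2K and POLR2L, passed the threshold. POLR2H stood at 5.48, 13.5, 8.10, 18.0 and 48.4 RPM, 8.84-fold higher in the blastocyst [6.03 to 13.5]. POLR2K stood at 1.22, 0.676, 12.3, 3.08 and 16.3 RPM, 13.4-fold higher over the span [6.06 to 36.8], with a lower level in the morula than in the stages before and after it. POLR2L went from 1 read and 0 reads in the first 2 stages to 4.23, 8.98 and 8.88 RPM.

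In pig 1 of the 3 common subunits compared passed the threshold. POLR2F rose: it stood at 13.0, 3.14, 25.3, 82.3 and 71.9 RPM, 8.04-fold higher in the 8-16 than in the 2-4 cell embryo [4.45 to 15.8] and 5.52-fold higher over the span [4.00 to 7.77]. The pig POLR2F row overlaps SOX10 on the other strand, listed at 14.2, 3.62, 27.2, 87.6 and 123 RPM, which moved with POLR2F through the morula; its part was not tested. POLR2H in pig had a span difference of -0.37. POLR2K in pig had 0 reads in all 5 libraries, under the floor of 0.725 to 0.999 RPM, in a row that spans 150 bases, beside 1720 bases for the cow gene. It was the 1 member under 1 RPM in every library of a species, and what its row covers of the transcript was not tested.

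RNA polymerase III members held calls in both directions in both species. Its catalytic pair, POLR3A and POLR3B, was not called at any step. Under non-mitochondrial scaling pig POLR3A was called lower from morula to blastocyst, at -2.02. POLR3A stood at 32.7, 45.5, 76.0, 81.6 and 32.8 RPM in cow and at 44.4, 24.6, 22.4, 73.3 and 18.0 RPM in pig, highest in the morula in both, though in cow the 8-16 cell and morula intervals overlapped. POLR3B stood at 24.3, 40.8, 95.7, 190.0 and 55.8 RPM in cow and at 21.0, 28.5, 54.6, 105 and 86.3 RPM in pig, again highest in the morula. Its span difference in pig, 1.99, lay just short of the threshold and passed it under non-mitochondrial scaling.

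**Figure D3:**
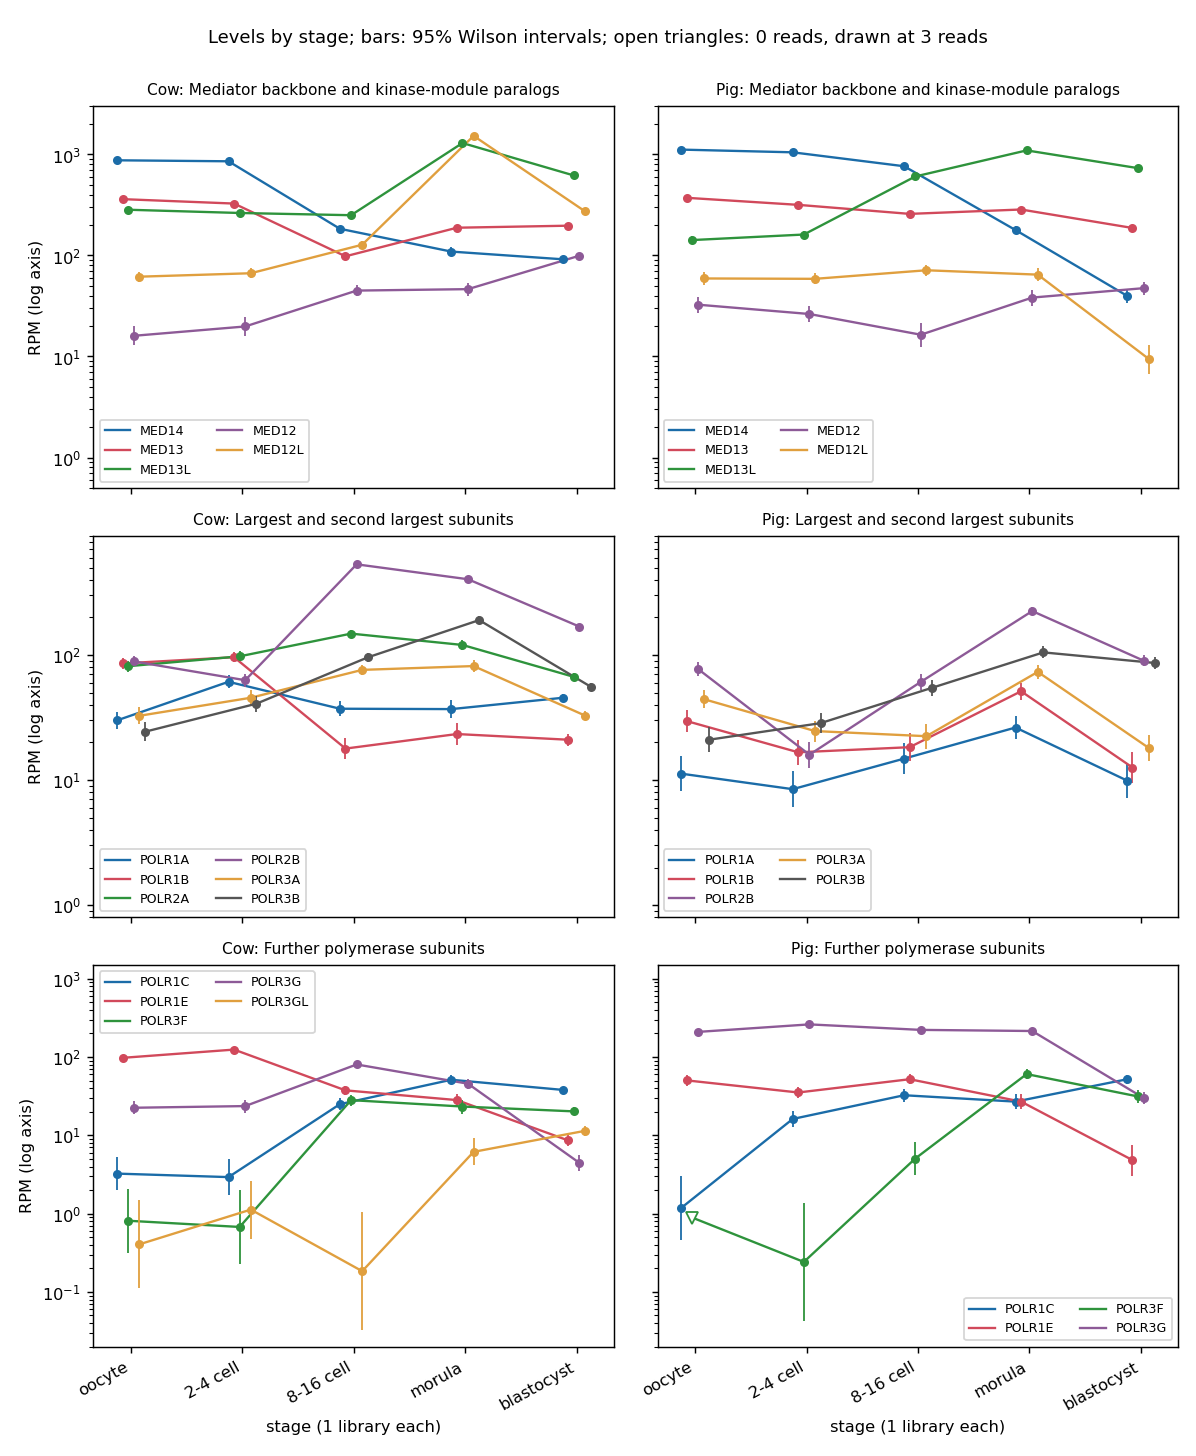
RPM on a log axis at each stage (x axis, 1 library each) for MED14 and the kinase-module paralogs (top), the largest and second largest polymerase subunits (middle) and further polymerase subunits, 5 in cow and 4 in pig (bottom), cow left and pig right; bars are 95% Wilson intervals and the open triangle marks 0 reads drawn at 3 reads. MED14 ends at 91.7 RPM in cow and 39.9 RPM in pig, while POLR3F starts under 1 RPM in both and ends at 20.2 and 31.4 RPM.

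POLR3C, POLR3F and POLR3G or POLR3GL form the subcomplex with which RNA polymerase III is recruited and opens its promoters. POLR3F rose in both species. In cow it had 4 and 3 reads in the oocyte and 2-4 cell libraries (0.811 and 0.676 RPM), then 28.2, 23.3 and 20.2 RPM, a ratio of 41.7 at the 2-4 to 8-16 cell step [13.99 to 204]. In pig it had 0 reads in the oocyte and 1 in the 2-4 cell embryo, then 5.05, 60.6 and 31.4 RPM. The pig blastocyst was at least 35.3-fold higher than the floor of 3 reads in the oocyte, and the morula 12.0-fold above the 8-16 cell embryo [7.19 to 21.4]. The rise thus fell between the 2-4 and 8-16 cell libraries in cow and was spread over the 8-16 cell and morula libraries in pig, where POLR3F had the widest range of any pig member, 5.63 on the log2 scale. The pig call at the 2-4 to 8-16 cell step was lost at 1.81 when values under 3 reads were set to 3 reads. The gene lies on chromosome 13 from 38841092 to 38855175 in the cow table and on chromosome 17 from 26719514 to 26737643 in the pig table.

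POLR3G and POLR3GL are paralogs that take the same place in the enzyme; POLR3G is known from pluripotent and proliferating cells and POLR3GL from differentiated tissues. POLR3G fell in both species. In cow it stood at 22.5, 23.7, 80.4, 45.6 and 4.44 RPM, and the morula to blastocyst step was 10.3-fold [7.67 to 13.9]. In pig it held 209.6, 261, 222 and 215 RPM through the morula and then 30.0 RPM in the blastocyst, 7.16-fold lower than the morula [5.85 to 8.84]. Both falls were concentrated between morula and blastocyst. The span call in cow, -2.11, was lost at -1.83 when libraries were scaled to non-mitochondrial reads.

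POLR3GL, in the cow table, went the other way. It had 2, 5 and 1 reads in the first 3 stages, then 6.15 RPM in the morula and 11.4 RPM in the blastocyst, a ratio of 28.2 over the span [7.67 to 234]. Its reads per read of POLR3G went from 0.0180 in the oocyte, 0.0476 in the 2-4 cell embryo and 0.00229 in the 8-16 cell embryo to 0.135 in the morula and 2.57 in the blastocyst. The blastocyst ratio [1.91 to 3.50] lay above the morula's [0.0842 to 0.207]. As the genes differ in length, these ratios show how the balance moved and not which transcript was the more abundant.

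POLR3E, part of a pair of subunits at the enzyme's periphery, had 1 read in the cow oocyte, 1 in the cow 2-4 cell embryo and then 24.5, 16.2 and 5.36 RPM. In pig the same gene stood at 13.0, 7.49, 9.79, 13.7 and 21.4 RPM with no step past the threshold. The cow span call, 2.40, became 1.98 when values under 3 reads were set to 3 reads. Its partner POLR3D fell in pig from 159.9 RPM in the morula to 24.1 RPM in the blastocyst, 6.63-fold [5.28 to 8.39]. POLR3C fell in cow from 147 to 29.8 RPM between the 2-4 and 8-16 cell embryos, a call lost under median scaling at -1.93, and POLR3K ran between 35.5 and 177 RPM in cow without a call.

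Mediator's backbone subunit MED14, on which head, middle and tail are joined, fell in both species. In cow it stood at 875, 856, 184, 109 and 91.7 RPM. The fall was 4.66-fold between the 2-4 and 8-16 cell embryos [4.34 to 4.999] and 9.55-fold over the span [8.97 to 10.2]. In pig it stood at 1117, 1049.9, 764, 179 and 39.9 RPM, a fall of 28.0-fold over the span [23.7 to 33.2], with a 4.28-fold step from 8-16 cell embryo to morula [3.90 to 4.71] and a 4.47-fold step from morula to blastocyst [3.72 to 5.39]. The oocyte and 2-4 cell levels were close in both species, and the first stage past the threshold was the 8-16 cell embryo in cow and the morula in pig. The cow step call was lost at -1.996 under non-mitochondrial scaling and at -1.87 under median scaling; the pig morula to blastocyst call was lost at -1.97 under median scaling; both span calls were kept under both. MED14 lies on the X chromosome, from 108241636 to 108301567 in the cow table and from 36354044 to 36424759 in the pig table, and no other gene of the tables overlaps it.

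The head module contacts RNA polymerase II. Over the span 1 of 7 cow members compared rose (MED19, from 2.03 to 12.7 RPM) and 1 fell (MED17, from 203 to 37.0 RPM, 5.49-fold [4.94 to 6.11]). In pig none of 6 rose and 2 fell: MED20 from 19.5 to 2.14 RPM and MED6 from 206 to 40.5 RPM. Of all genes, 21.8% rose and 18.4% fell in cow, and 26.0% and 19.2% in pig. Counts this small cannot set the head module apart from all genes. In cow MED6 was not called. Its row held 189, 217, 520, 327 and 517 reads, and the row of an unnamed gene overlapping it on the other strand held 191, 218, 527, 335 and 548. MED6 in pig likewise overlaps an unnamed gene on the other strand, at 356, 280, 213, 252 and 50 reads beside 697, 520, 526, 784 and 151 of MED6. MED8 in cow fell from 18.0 RPM in the 8-16 cell embryo to 2.05 RPM in the morula. MED11, MED18 and MED22 were not called at any step.

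The middle module holds MED1, the large subunit that binds nuclear receptors. MED1 stood at 244, 311, 179.7, 132 and 58.9 RPM in cow, 4.14-fold lower over the span [3.79 to 4.53], a difference of -2.03 just past the threshold that became -1.64 under non-mitochondrial scaling. In pig it stood at 597, 631, 846, 497 and 198 RPM, 3.02-fold lower [2.77 to 3.29] and under the threshold. The pig row overlaps CDK12 on the other strand, at 67.9 to 268 RPM. In both species MED1 was lowest in the blastocyst.

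MED4, another middle subunit, fell in cow: it stood at 81.7, 122, 21.2, 40.3 and 16.7 RPM, 4.89-fold lower over the span [4.16 to 5.77], a call that was lost at -1.86 under non-mitochondrial scaling. In pig it ran from 48.3 to 116 RPM with a span difference of -0.57. MED26, which joins Mediator to elongation factors, had a transient peak in cow at 6.49, 5.41, 47.1, 27.7 and 17.6 RPM, with an 8.72-fold rise at the 2-4 to 8-16 cell step [5.73 to 13.9]. MED9 rose at the same cow step, from 4 reads to 7.18 RPM, and stood at 1.62 RPM in the blastocyst.

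MED21 and MED31 are small middle subunits that were called in pig over the span. MED21 in pig stood at 31.4, 1.93, 1.58, 8.33 and 0.268 RPM; the last is 1 read. It was 16.2-fold lower in the 2-4 cell embryo than in the oocyte [7.95 to 38.6], and the ratio of oocyte to blastocyst was 117 [20.6 to 4666]. In cow MED21 ran between 14.2 and 21.9 RPM, the narrowest range of any cow member at 0.59 on the log2 scale. MED31 in cow stood at 5.68, 5.63, 21.4, 8.46 and 6.28 RPM, and its difference at the 2-4 to 8-16 cell step, 1.75, became 2.01 under non-mitochondrial and 2.06 under median scaling. MED31 in pig stood at 50.0, 23.0, 16.7, 52.0 and 207 RPM, 4.14-fold higher over the span [3.50 to 4.92], a call of 2.03 that became 1.98 under median scaling. The overlapping TXNDC17 on the other strand stood at 15.4, 6.52, 4.42, 27.3 and 189 RPM, so the rise from 16.7 to 207 RPM ran beside one from 4.42 to 189 RPM; its part was not tested. MED7 in pig rose at the last step, from 9.66 to 42.1 RPM, 4.36-fold [2.92 to 6.72]. MED10 was not called at any step.

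MED27, MED28 and MED30 sit between head and tail. MED28 in pig stood at 363, 318, 438, 86.6 and 42.1 RPM, with a 5.06-fold fall between 8-16 cell embryo and morula [4.42 to 5.79] and an 8.62-fold fall over the span [7.29 to 10.2]. The same step held the first call of pig MED14. In cow MED28 ran between 3.68 and 8.67 RPM and was not called. MED27 rose in cow from 26.3 RPM in the 8-16 cell embryo to 119 RPM in the morula, a call that became 1.99 under median scaling, and MED30 had no call. The tail module, which binds many activators, held no span call in either species among 5 cow and 4 pig genes. Of all genes, 21.8% were called higher and 18.4% lower over the span in cow, and 26.0% and 19.2% in pig. So few genes cannot set the module apart from all genes. The 1 call of the tail module at a single step was MED24 in cow, from 28.2 to 4.60 RPM between the 2-4 and 8-16 cell embryos.

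The kinase module regulates the contact of Mediator with RNA polymerase II, and its MED13 or MED13L links it to the core. MED13L stood at 284, 263, 250.4, 1298 and 619 RPM in cow, a 5.18-fold rise from 8-16 cell embryo to morula [4.88 to 5.51]. Pig libraries held 142, 161, 605, 1097 and 732 RPM, 5.15-fold higher over the span [4.67 to 5.68]. MED13 stood at 361, 326, 98.1, 188 and 197 RPM in cow and at 372, 317, 258, 285 and 187 RPM in pig and was not called at any step. The reads of MED13L per read of MED13 therefore went from 0.785 and 0.807 in the first 2 cow stages to 2.55, 6.89 and 3.14, and in pig from 0.382 and 0.508 to 2.35, 3.85 and 3.91. In both species the last 3 stages lay above the first 2, with intervals that did not overlap: the highest upper bound of the early stages was 0.872 in cow and 0.558 in pig, and the lowest lower bound of the late stages 2.31 and 2.16.

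MED12L was called in opposite directions over the span, the only member with opposite calls. In cow it stood at 61.7, 66.7, 128, 1528 and 273 RPM: 12.0-fold higher in the morula than in the 8-16 cell embryo [11.05 to 13.0], 5.59-fold lower in the blastocyst than in the morula [5.37 to 5.82], and 4.43-fold higher over the span. The pig levels were 59.2, 58.7, 71.4, 64.6 and 9.38 RPM, with overlapping intervals through the morula and then 6.89-fold lower in the blastocyst [4.78 to 10.2]. Both species thus fell from morula to blastocyst, and the cow rise to the morula had no counterpart in pig. MED12 stood at 16.0, 19.8, 44.9, 46.4 and 99.5 RPM in cow, 6.21-fold higher over the span [4.95 to 7.89], and at 32.6, 26.3, 16.4, 38.3 and 47.5 RPM in pig without a call. Reads of MED12L per read of MED12 ran 3.85, 3.36, 2.84, 32.9 and 2.75 in cow and 1.82, 2.23, 4.35, 1.69 and 0.198 in pig.

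The MED12L gene spans 368926 bases in the cow table (chromosome 1, 117548538 to 117917463) and overlaps 6 genes on the other strand. Of these P2RY14 stood at 3.45, 2.70, 12.7, 178 and 55.8 RPM and P2RY12 at 18.1, 19.8, 32.6, 181 and 22.6 RPM, each highest in the morula as MED12L was. In pig (chromosome 13, 91271539 to 91603394) the overlapping P2RY14 stood at 18.1, 26.8, 37.3, 46.6 and 8.31 RPM. The part of reads shared between these rows was not tested.

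Between the species, 43 members were compared over the span in both. Of these 3 rose in both, POLR1C and POLR3F among them, POLR1E, POLR3G and MED14 fell in both, and MED12L was opposite. The 3 that rose in both are 37.5% of the 8 called higher in cow and 37.5% of the 8 called higher in pig; over all 8567 shared symbols compared, the same shares were 53.3% and 42.7%. The 3 that fell in both are 60.0% of the 5 called lower in cow and 33.3% of the 9 in pig, beside 44.2% and 44.2%. The sign of the difference was the same for 30 of the 43 (69.8%), beside 68.4% of all shared symbols. Across these 43 genes, which share 2 libraries in each species, the differences had a Pearson r of 0.55 and a Spearman rho of 0.51, beside 0.51 and 0.49 across all shared symbols. For single steps rho was lower in members and in all shared symbols alike: 0.06 beside -0.05 for the first step, 0.32 beside 0.18 for the second, -0.0024 beside 0.17 for the third and 0.28 beside 0.39 for the last.

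**Figure D4:**
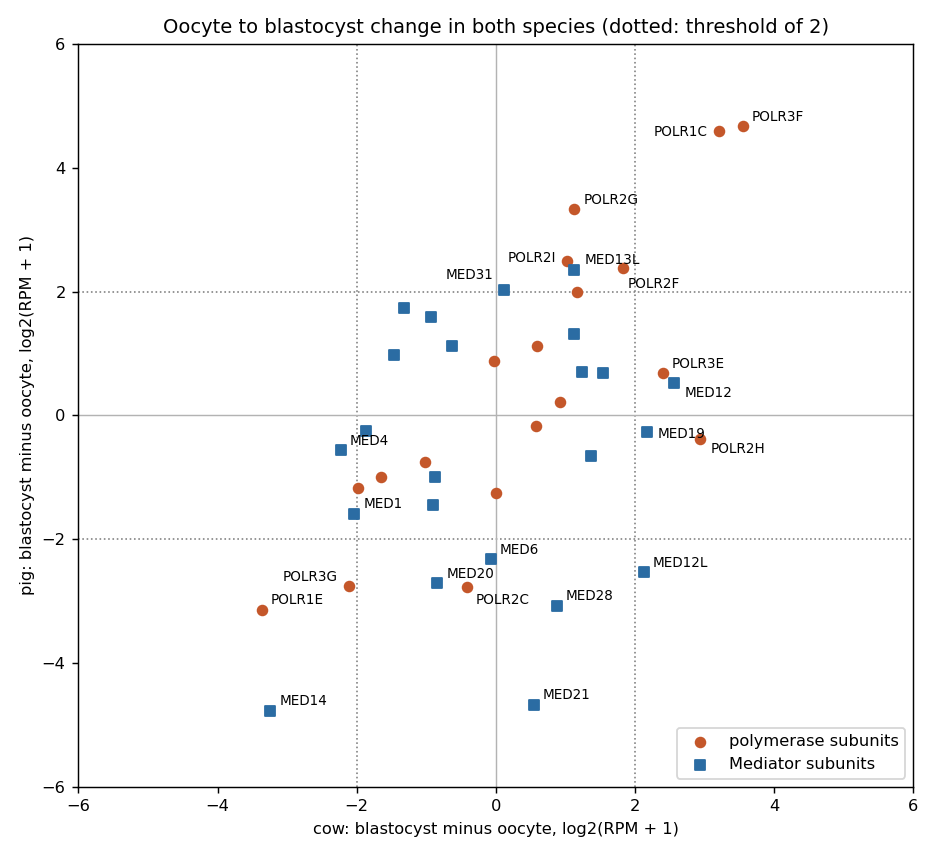
Oocyte to blastocyst difference in log2(RPM + 1) in cow (x axis) and pig (y axis) for 42 of the 43 members compared in both species, circles for polymerase and squares for Mediator subunits, 1 library a stage; dotted lines mark the threshold of 2 and names are given for members past it in either species. POLR1C and POLR3F lie at the upper right, POLR1E, POLR3G and MED14 at the lower left, and MED12L at the lower right with 2.13 in cow and -2.54 in pig.

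Partner genes of the same machinery were taken from 7 textbook lists with 84 genes: the Mediator kinase and its cyclin, the general transcription factors of RNA polymerase II, pausing and elongation factors, polymerase assembly factors with C-terminal domain phosphatases, factors of RNA polymerases I and III, and the mitochondrial RNA polymerase with its factors. From oocyte to blastocyst, 11 of 81 rose and 13 fell in cow and 17 of 66 rose and 7 fell in pig, with median differences of -0.10 and 0.27 beside 0.18 and 0.43 for all genes. Of all genes compared, 21.8% were called higher and 18.4% lower in cow, and 26.0% and 19.2% in pig. Scaled to non-mitochondrial reads, the cow counts became 17 and 9. Among the general transcription factors none of 17 rose and 6 fell in cow, or 1 and 4 with that scaling, while in pig 3 of 13 rose and 2 fell. Among pausing and elongation factors 3 of 24 rose and 2 fell in cow, and 6 of 21 rose and none fell in pig. Of the RNA polymerase I factors 2 of 10 rose and 1 fell in cow and 1 of 7 rose and 1 fell in pig; of the RNA polymerase III factors 1 of 16 rose and 1 fell in cow and 2 of 11 rose and 3 fell in pig. Of the mitochondrial list 1 of 3 rose in cow and 3 of 3 rose in pig. Of the assembly factors and phosphatases 3 of 8 rose and 1 fell in cow and 1 of 9 rose and 1 fell in pig.

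In these lists 4 genes rose in both species and 3 fell in both. SUPT4H1, a subunit of the elongation factor DSIF, had 0 reads in the cow oocyte and 2-4 cell embryo and stood at 111, 60.5 and 23.1 RPM after them, and in pig it stood at 1.78, 6.77, 50.2, 159 and 75.3 RPM. TAF1D, a subunit of the RNA polymerase I selectivity factor, stood at 3.25, 0.901, 269.7, 231 and 92.7 RPM in cow and at 15.4, 15.0, 87.8, 286 and 174 RPM in pig. TFAM, which packages and helps to transcribe mitochondrial DNA, rose in cow from 1.01 to 23.0 RPM and in pig from 1 read to 82.3 RPM. CTDSPL, a C-terminal domain phosphatase, rose from 3.04 to 28.3 RPM and from 1.18 to 15.6 RPM. The 3 that fell were MNAT1, TAF1A and GTF3C2. MNAT1 is the assembly factor of the kinase in TFIIH, and GTF3C2 is a subunit of TFIIIC. TAF1A, like TAF1D, is a subunit of the RNA polymerase I selectivity factor. In cow MNAT1 went from 323 to 48.9 RPM, TAF1A from 76.1 to 7.33 RPM and GTF3C2 from 99.4 to 17.8 RPM. The pig levels went from 217 to 39.4 RPM for MNAT1, 332 to 34.9 RPM for TAF1A and 159.6 to 32.7 RPM for GTF3C2.

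The kinases that join the MED12 and MED13 proteins moved differently in the 2 species. CDK8 fell in cow, at 323, 257, 165, 134 and 27.0 RPM, and stood at 74.3, 60.2, 76.4, 171 and 114 RPM in pig, a span difference of 0.61. Its paralog CDK19 fell in cow from 72.2 to 14.9 RPM, a call that was lost under non-mitochondrial scaling, and rose in pig from 13.6 to 127 RPM. Reads of CDK19 per read of CDK8 went from 0.224 in the oocyte to 0.551 in the blastocyst in cow and from 0.183 to 1.11 in pig. The cyclin CCNC, in the cow table, stood at 6.49, 3.38, 210.6, 82.6 and 30.7 RPM, with its peak at the 8-16 cell stage as for POLR2B and MED26.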

How the data were processed

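RNA-seq of cow and pig oocytes and embryos was analysed, 1 library for each of 5 stages in each of 2 species (10 libraries). Per the labels' protocols, RNA was isolated with PicoPure, amplified with Ovation RNA-Seq System V2 and made into NEBNext libraries with 8 PCR cycles. Such reads are not independent molecules, so intervals and floors cover counting error only. Trim Galore 0.6.4, HISAT2 2.1.0 and the builds UMD3.1 and Sscrofa11.1 are named in the submitters' processing notes. The counting method, annotation, strand handling and removal of duplicates are not given in the sources used here. The deposited values are on a log2 scale: in each library at least 99.97% of them are log2 of whole reads (within 0.02 of a read) per 1000000 reads, and 0 reads stand as 0.9 of a read.

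From these values whole reads, read totals and RPM were computed with pandas 2.3.3, numpy 2.4.6 and scipy 1.17.1. Differences used a pseudocount of 1 RPM and kept the deposited value of 0 reads; printed levels use 0. A fold against 0 reads is a lower bound against 3 reads per library. Each species was analysed within its own table. Code was tested on simulated data. Alternatives were a pseudocount of 0.5, a minimum of 5 RPM or none, a threshold of 1, scaling to non-mitochondrial gene reads or to the median gene, a floor of 3 reads, summing repeated symbols and, chosen after seeing the data, 0 reads taken as 0. The levels of overlapping genes and the counts of lists under each scaling were also added after seeing the data.

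Members named with every library's value were the 2 largest subunits of each polymerase, the paralog pairs, MED14, MED1, the 4 members of each family with the widest range in each species, members called in opposite directions over the span, and members under 1 RPM in every library of a species. Partner genes were named when called the same way over the span in both species. GTF2H3 was added because it was called in opposite directions. The other members and the kinases of the module given with values were chosen after their values were seen. The members and all lists were chosen with earlier results of these data known. Sequence features of promoters and proteins were not analysed here. The values of 1 member and of some overlapping genes are not reported here, though counts include that member.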

Additional observations from a re-analysis of the deposited data

Results flagged for a closer look

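MED12L from oocyte to blastocyst differed by 2.13 on the log2(RPM + 1) scale in cow and by -2.54 in pig. It stands out because the 2 species moved in opposite directions past the threshold. The difference between the species was not tested, since each stage of each species had 1 library. The direction in each species was the same under every alternative that gave a value for it.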

How the results depend on the processing

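No paired analysis was possible because each stage of each species had 1 library, and no library could be left out. Lowering the threshold to 1 raised the number of members called in every comparison. For the steps in order and then the whole span, it became 6, 32, 16, 25 and 35 in cow and 11, 10, 16, 29 and 29 in pig. Of all genes compared, 12.0%, 62.9%, 42.0%, 56.9% and 70.4% were then called in cow. In pig the shares were 27.3%, 25.4%, 56.4%, 59.8% and 72.5%. At the pig 2-4 to 8-16 cell step the 2 calls became 4 with a pseudocount of 0.5 RPM and 1 with values under 3 reads set to 3 reads. The other 78 recomputed counts stayed within 1.5 times the count given. Of the 228 recomputed span differences of named members, none of those called changed sign. Below the threshold, cow POLR2A went from -0.28 to 0.12 under non-mitochondrial scaling and cow POLR3A from 0.0056 to -0.05 under median scaling. Of the 228, 13 moved beyond their counting error, all under non-mitochondrial scaling, where 25 others did not. Over the span this scaling shifted the median of all cow genes by 0.42. Mitochondrial genes held 4.40% of the reads in the cow oocyte and 30.2% in the cow blastocyst. The cause of the 13 moves was not tested. Over the 7 alternatives that kept the threshold and 1 row a symbol, the members whose calls were kept in all numbered 10 of 14 at the cow 2-4 to 8-16 cell step, 14 of 18 over the cow span, 7 of 9 at the pig morula to blastocyst step and 15 of 17 over the pig span. Scalings shifted the median of all genes by between -0.29 and 0.42. Low depth limits members with few reads: 7 cow and 8 pig members were at or under 3 reads in the oocyte library.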
